A study of Mus musculus with 9 samples.

Results

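Lrat, Rbp4, Reln, Hgf, Ecm1, Colec11 and Hand2 are 7 genes of retinoid handling and of the quiescent hepatic stellate cell, chosen by name from the 24532 genes of the table. All 7 were among the 14731 genes with enough reads to be tested. Their messenger RNA was measured in 9 whole-liver libraries from wild-type C57BL/6 mice. Every mouse had received thioacetamide (TAA), a liver toxin that causes fibrosis, by intraperitoneal injection in escalating doses, 2 injections a week for 10 weeks. The rhCYGB 2-week group (replicates 17, 18 and 19) also received recombinant human cytoglobin, a globin protein, at 2 mg/kg into the tail vein, 2 doses a week during the last 2 weeks. The rhCYGB 5-week group (replicates 23, 27 and 28) received the same dose during the last 5 weeks. The TAA group (replicates 12, 13 and 14) received saline in its place. Mice given rhCYGB were killed 2 days after the last dose. Livers without TAA were not analysed here, so no level below can be set against healthy liver. Whether every numbered sample came from its own mouse is not stated in the labels, so p-values here reflect sample-to-sample spread, which may be technical.

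Stellate cells lie between hepatocytes and the sinusoidal endothelium and hold most of the body's vitamin A as retinyl ester in lipid droplets. In injured liver they lose these droplets and turn into collagen-making myofibroblasts, and markers of the quiescent state are then replaced by contractile and matrix genes. Lecithin retinol acyltransferase (Lrat) makes the stored ester, and retinol binding protein (Rbp4) carries retinol out into the blood. Rbp4 is known mainly as a hepatocyte product, so the name of the set describes it by its retinoid role and not by its cell of origin. Hepatocyte growth factor (Hgf), reelin (Reln), extracellular matrix protein 1 (Ecm1) and collectin 11 (Colec11) are secreted, and Hand2 is a basic helix-loop-helix transcription factor. In whole liver, fewer cells of a type and less RNA per cell cannot be told apart.

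Rbp4 was the member that passed the test, and its transcripts begin at a pair of annotated start sites. The 250 bases before each site are shown with those before Lrat, the storage enzyme, so that the start regions of carrier and storage enzyme can be read side by side. They come from RefSeq (GRCm38.p6, the mm10 build), 5′ to 3′ on the minus strand. Capitals mark every exact match to TATAAA, a form of the TATA box, or to CANNTG, the E-box that basic helix-loop-helix factors bind. Other forms of the TATA box were not searched for. The windows are chr19:38124812-38125061 for the inner Rbp4 start, chr19:38125322-38125571 for the outer Rbp4 start and chr3:82903975-82904224 for Lrat.
Rbp4 inner start: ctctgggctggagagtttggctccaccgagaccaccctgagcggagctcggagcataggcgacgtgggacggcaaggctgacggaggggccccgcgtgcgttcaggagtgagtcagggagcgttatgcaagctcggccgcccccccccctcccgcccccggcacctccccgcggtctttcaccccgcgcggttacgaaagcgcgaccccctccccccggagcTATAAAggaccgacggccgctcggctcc
Rbp4 outer start: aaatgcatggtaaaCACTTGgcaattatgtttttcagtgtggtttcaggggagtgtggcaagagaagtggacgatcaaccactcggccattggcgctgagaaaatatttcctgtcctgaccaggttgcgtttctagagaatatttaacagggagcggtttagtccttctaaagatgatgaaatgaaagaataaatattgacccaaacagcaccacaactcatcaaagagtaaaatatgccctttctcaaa
Lrat: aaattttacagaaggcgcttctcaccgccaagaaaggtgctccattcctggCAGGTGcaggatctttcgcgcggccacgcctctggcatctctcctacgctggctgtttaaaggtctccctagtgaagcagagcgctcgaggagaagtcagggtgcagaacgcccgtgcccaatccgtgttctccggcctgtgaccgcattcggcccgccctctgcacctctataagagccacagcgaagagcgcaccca
The inner Rbp4 window has a TATA box but no E-box, and its share of G and C is 70.8%. The outer Rbp4 window has an E-box but no TATAAA, and its share of G and C is 40.8%. The Lrat window likewise has an E-box and no TATAAA, and its share of G and C is 59.2%. On either strand, TATAAA occurs in 12.4% and CANNTG in 66.2% of 32851 windows of this length. AGGTCA, the core element of retinoid and other nuclear receptors, occurs in 14% of them and in none of the 9 windows of the 7 genes. These matches describe letters in the windows and no binding.

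The shallowest library held 55655727 estimated reads and the deepest, replicate 18, held 87289945. On the first principal component of log2 CPM (32.3% of the variance), replicates 17 and 18 of the 2-week group (39.4 and 44.1) and replicate 23 of the 5-week group (-78.8) lay farthest out, with the other 6 libraries between -20.3 and 20.5. Each member's change against TAA is also given with these 3 libraries left out together, a fit in which 1 library remains at 2 weeks and its spread is taken from the other groups. Differences below were tested with edgeR (quasi-likelihood) and p-values adjusted over all 14731 genes by Benjamini-Hochberg, and a gene counts as called at an adjusted p under 0.05. Levels within a gene are TMM-scaled CPM, that is the read count relative to library size, and levels between genes are the authors' FPKM, which are per length. At 2 weeks against TAA the log2 change of genes fell with gene length (Spearman rho -0.42 across 14731 genes, which are not independent replicates), while at 5 weeks against TAA rho was 0.0519. Lrat (5349 bases) and Reln (11696 bases) are long genes, and Rbp4 (957 bases), Colec11 (1429 bases) and Ecm1 (1898 bases) are short ones. Changes at 2 weeks with this trend removed are therefore given for these 5 genes, and the part of the trend in each result was not otherwise tested.

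Per length, Rbp4 stood far above the other members in every library. Its FPKM averaged 3257 ± 38.7 in the 2-week, 3015 ± 368 in the 5-week and 2499 ± 107 in the TAA libraries (SD, n = 3 each). Ecm1 came next, at 26.03 to 67.3 FPKM over the 9 libraries, followed by Colec11 at 15.3 to 23.9 FPKM, and these ranges do not overlap. Lrat (2.45 to 7.32 FPKM), Hand2 (2.11 to 5.08 FPKM) and Reln (2.34 to 4.55 FPKM) overlapped and have no order among them. Hgf was the lowest, at 0.541 to 2.40 FPKM, and only its highest library reached into the range of those 3 genes.

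**Figure D1:**
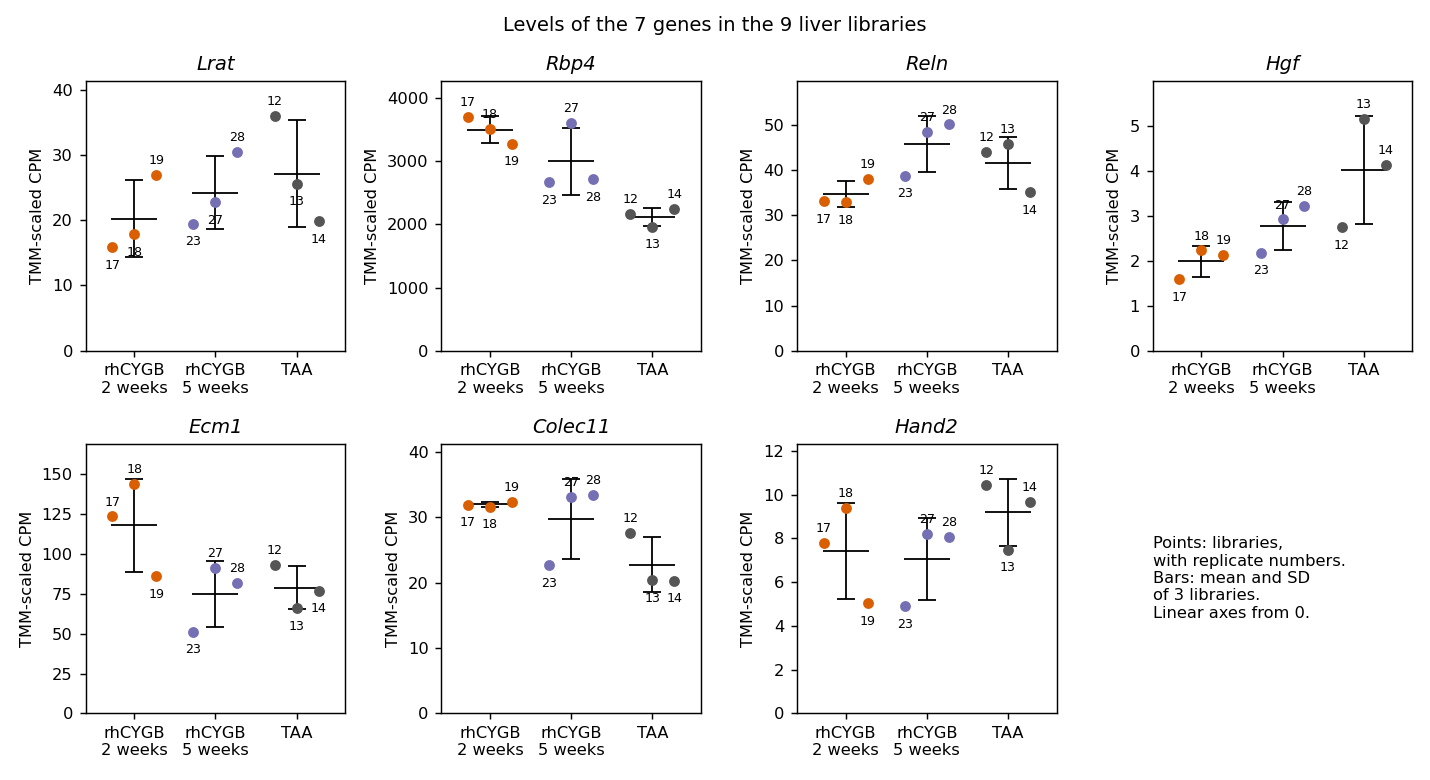
Levels of the 7 genes as TMM-scaled CPM (linear axes from 0) in each library, with the mean and SD of 3 libraries per group. Rbp4 lies at 3278 to 3705 CPM in the 2-week libraries and at 1963 to 2239 CPM in the TAA libraries, with the 5-week libraries between 2667 and 3610 CPM. Hgf lies at 1.59 to 2.23 CPM in the 2-week libraries and at 2.75 to 5.14 CPM in the TAA libraries.

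Comparing each rhCYGB course with TAA asks what the protein did to these genes in the injured liver. At 2 weeks, Rbp4 rose and was the only member called, 1 of 7, where 3.31% of all tested genes were called (1.98% higher, 1.34% lower). By level, the 2-week libraries lay wholly above TAA for Rbp4 and Colec11 and wholly below it for Hgf. Such separation without regard to a test occurred in 33.7% of all genes, 17.3% upward and 16.3% downward, so 3 of 7 is near the background. At 5 weeks no member was called by edgeR, where 1.29% of all genes were (0.686% higher, 0.604% lower). DESeq2 called 1 member at 5 weeks, Rbp4, and limma called 0. At that time 1 member, Rbp4, lay wholly above TAA (25% of all genes lay apart, 11.6% upward and 13.4% downward). At an unadjusted p under 0.05, 4 members passed at 2 weeks and 1 at 5 weeks, beside 23.4% and 19.2% of all genes. In both comparisons 3 members had a log2 change above 0 and 4 below it, beside 52.9% and 48.6% of all genes below 0. The median change of the 7 was -0.26 and -0.07, beside -0.03 and 0.01 over all genes. The set therefore did not move one way, and its members are described singly. Both comparisons use the same TAA libraries.

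Lrat (gene ID 79235, mm10 chromosome 3, 82892582 to 82903974) makes retinyl ester for storage, and its loss is a known mark of stellate cell activation. It had 15.8, 17.9 and 26.9 CPM in the 2-week libraries, 19.5, 22.8 and 30.5 CPM in the 5-week libraries, and 35.9, 25.6 and 19.9 CPM in the TAA libraries. The 3 groups overlapped, and the TAA libraries alone spanned most of the range. The log2 change was -0.42 ± 0.27 (SE, adjusted p = 0.359) at 2 weeks and -0.16 ± 0.27 (adjusted p = 0.793) at 5 weeks. Neither was called, and without TAA replicate 12, the highest library, the 5-week change was 0.087. At 2 weeks the change was -0.18 without replicate 12 and -0.69 without replicate 19, and -0.22 ± 0.26 with the length trend removed. It was -0.011 at 2 weeks and -0.027 at 5 weeks without replicates 17, 18 and 23 together.

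Rbp4 (gene ID 19662, mm10 chromosome 19, 38116620 to 38125321) carries retinol in plasma in a complex with transthyretin. Its level was 3705, 3512 and 3278 CPM in the 2-week libraries, 2667, 3610 and 2717 CPM in the 5-week libraries, and 2161, 1963 and 2239 CPM in the TAA libraries. All 6 rhCYGB libraries lay above all 3 TAA libraries. At 2 weeks the rise was 1.65-fold, to 3498 ± 214 CPM against 2121 ± 142 CPM in TAA (SD, n = 3 each), a log2 change of 0.72 ± 0.14 (SE, edgeR adjusted p = 0.0339). At 5 weeks the mean was 2998 ± 530 CPM and the log2 change 0.50 ± 0.14 (adjusted p = 0.108). The fit of all 6 rhCYGB libraries against TAA gave 0.61 ± 0.14 (adjusted p = 0.0549). The call at 2 weeks sat close to the threshold. It was lost without replicates 12, 13, 14, 17, 18 or 28 in turn (adjusted p 0.0558 to 0.154), while the change stayed between 0.65 and 0.77 in the 9 such fits. Without replicates 17, 18 and 23 together it was 0.63 (adjusted p = 0.272) at 2 weeks and 0.58 (adjusted p = 0.165) at 5 weeks. With the length trend removed the change at 2 weeks was 0.39 ± 0.09 (adjusted p = 0.0475), and the 5-week change of 0.50 ± 0.09 was then called too (adjusted p = 0.0260).

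Both Rbp4 start sites carried the higher level. Transcripts from the inner start (38124811) made up 89.5% to 92.0% of Rbp4 reads in the 9 libraries. They had 3316, 3215 and 2972 CPM in the 2-week libraries, 2454, 3303 and 2474 CPM in the 5-week libraries, and 1987, 1794 and 2054 CPM in the TAA libraries. Transcripts from the outer start (38125321) had 389, 296 and 305 CPM in the 2-week, 214, 307 and 243 CPM in the 5-week, and 173, 169 and 185 CPM in the TAA libraries. For each form, all 6 rhCYGB libraries again lay above TAA, as a description with no test, since both forms share most of their sequence and the split was estimated.

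Transthyretin (Ttr), the plasma partner of Rbp4, had 11569, 12252 and 9707 CPM in the 2-week libraries, against 7333, 6034 and 7555 CPM in TAA. Those libraries did not overlap, but the log2 change of 0.68 ± 0.17 was not called (adjusted p = 0.0588), and at 5 weeks it was 0.27 ± 0.17 (adjusted p = 0.423). Over 15 hepatocyte markers, Ttr among them, 0 were called at 2 weeks by edgeR (6 at an unadjusted p under 0.05, 4 higher by DESeq2, 0 by limma), with a median log2 change of 0.32. Their summed level ran from 137578 to 181820.5 CPM in the 2-week, 137604 to 180583 CPM in the 5-week and 124580 to 140784 CPM in the TAA libraries, and none was at 0. Most of that sum is albumin (Alb), which averaged 86170.5 CPM in TAA and 103223 CPM over all rhCYGB libraries. At 5 weeks Cyp2e1 and Cyp2f2, cytochrome P450 enzymes of hepatocytes, were called higher (log2 change 1.38 ± 0.21 and 0.71 ± 0.13, adjusted p = 0.0361 and 0.0467). The part of these hepatocyte levels in the Rbp4 result was not tested.

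Hgf (gene ID 15234, mm10 chromosome 5, 16553495 to 16619439), the ligand of the receptor Met and a growth factor for hepatocytes, pointed the other way. It had 1.59, 2.23 and 2.14 CPM in the 2-week libraries, 2.18, 2.92 and 3.21 CPM in the 5-week libraries, and 2.75, 5.14 and 4.13 CPM in the TAA libraries. All 2-week libraries lay below all TAA libraries, while the 5-week libraries overlapped TAA through replicate 12. The mean was 1.99 ± 0.345 CPM at 2 weeks against 4.01 ± 1.20 CPM in TAA, a log2 change of -1.01 ± 0.27 that missed the call (adjusted p = 0.0685). It was called by DESeq2 (adjusted p = 0.00839), with library totals (0.0291), by limma on FPKM (0.0337) and without replicate 23 (0.0441). With library totals and on FPKM the median change of all genes was itself -0.36 and -0.20. Relative to that median Hgf was -0.98 with library totals and -0.47 on log2(FPKM + 1), beside -0.98 in TMM. Hgf averaged 0.718 FPKM at 2 weeks and 1.78 FPKM in TAA, so the added 1 shrinks its change on that scale. The -0.47 is therefore not a smaller fall of FPKM itself. At 5 weeks the change was -0.53 ± 0.27 (adjusted p = 0.309). The changes were -0.91 and -0.39 without replicates 17, 18 and 23 together, and neither was called. Read counts were small, at 77 to 350 per library.

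The Hgf transcripts fall into those that reach the last exon, which include the full-length growth factor, and a form that ends early in the gene. Transcripts to the last exon had 0.661, 1.36 and 0.949 CPM in the 2-week libraries, 1.40, 1.70 and 2.16 CPM in the 5-week libraries, and 2.65, 3.67 and 2.47 CPM in the TAA libraries. Summed over these transcripts, all 6 rhCYGB libraries lay below all 3 TAA libraries, while the Hgf gene total overlapped TAA at 5 weeks. By gene total, 6.73% of all genes lay below TAA in this way. TAA replicate 12 lay below 5-week replicates 27 and 28 by gene total (2.75 against 2.92 and 3.21 CPM). Its place above them here rests on its estimated split, with 2.65 CPM assigned to transcripts that reach the last exon. Within this class the estimated split differed between libraries. The 2645-base transcript had 0 reads in all 2-week libraries and in TAA replicate 14. The 2838-base transcript had 0 reads in all 5-week libraries and in TAA replicate 12. The part of this split in the difference was not tested. The early-ending form spanned 0.874 to 1.19 CPM in the 2-week, 0.771 to 1.22 CPM in the 5-week and 0.0975 to 1.66 CPM in the TAA libraries, and it overlapped in all groups. These are descriptions with no test, since they rest on 6 to 250 reads per form and library, and the share of the early form in replicate 12 (3.55%) stood far from the other 8 (28.6% to 58.4%).

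**Figure D2:**
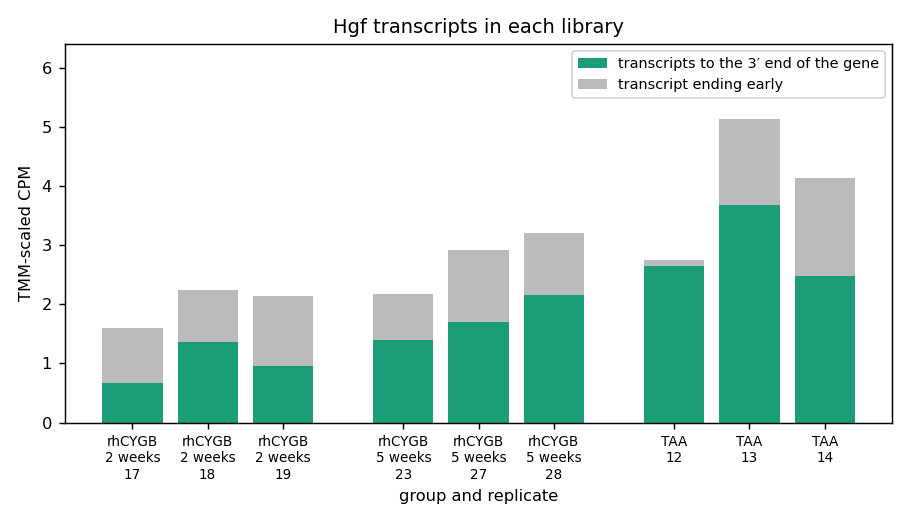
Hgf level in each library (TMM-scaled CPM, linear axis from 0), split into transcripts that reach the 3′ end of the gene and the transcript that ends early. The part to the 3′ end is at most 1.36 CPM in the 2-week and 2.16 CPM in the 5-week libraries and at least 2.47 CPM in the TAA libraries. In TAA replicate 12 this part (2.65 CPM) rests on an early-ending share of 3.55%, the lowest of all libraries.

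Among 20 tested genes of HGF activation, its receptor and adaptors, 1 was called higher and 2 lower at 2 weeks, and 0 higher and 1 lower at 5 weeks, with median changes of -0.15 and 0.03. Plau, the urokinase that can activate HGF, fell at 2 weeks (log2 change -1.76 ± 0.25, adjusted p = 0.0235), to 1.147 ± 0.299 CPM against 3.91 ± 0.43 CPM in TAA. Plat, tissue plasminogen activator, fell at both times (-1.41 ± 0.26, adjusted p = 0.0295, and -1.58 ± 0.27, adjusted p = 0.0379). F12, the coagulation factor XII made by hepatocytes, rose at 2 weeks (0.73 ± 0.11, adjusted p = 0.0240). Plaur, the urokinase receptor, was called lower over all rhCYGB libraries (-1.47 ± 0.32, adjusted p = 0.0462). Hgfac, the HGF activator, had log2 changes of 0.36 ± 0.16 (adjusted p = 0.221) and 0.49 ± 0.16 (adjusted p = 0.148). Met had -0.20 ± 0.24 (adjusted p = 0.636) and 0.60 ± 0.24 (adjusted p = 0.218), with 83.6 CPM in replicate 23 and 29.3 to 47.9 CPM in the other 8 libraries.

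Reln (gene ID 19699, mm10 chromosome 5, 21884454 to 22344705) encodes a large secreted protein known from neuronal migration and expressed by stellate cells in liver. It had 33.0, 32.9 and 38.0 CPM in the 2-week libraries, 38.8, 48.5 and 50.1 CPM in the 5-week libraries, and 44.0, 45.7 and 35.04 CPM in the TAA libraries. The 5-week libraries lay above the 2-week libraries, by a narrow margin between replicates 23 and 19, and both groups overlapped TAA. The log2 change against TAA was -0.26 ± 0.15 (adjusted p = 0.303) at 2 weeks and 0.14 ± 0.15 (adjusted p = 0.661) at 5 weeks. Reln is the longest member, and with the length trend removed the 2-week value was 0.0085 ± 0.19. Leaving out replicates 17, 18 and 23 together gave -0.13 at 2 weeks and 0.24 at 5 weeks. Of its receptors, Vldlr had log2 changes of 0.23 ± 0.46 (adjusted p = 0.779) and 0.15 ± 0.46 (adjusted p = 0.901) at about 1 CPM. Lrp8 had 0.89 to 1.14 CPM, 0.39 to 1.02 CPM and 1.22 to 1.64 CPM in the same order of groups, and lay below TAA at both times without a call (log2 change -0.49 ± 0.38, adjusted p = 0.453, and -1.26 ± 0.39, adjusted p = 0.132). Dab1, the intracellular adaptor, stayed between 0.23 and 0.62 CPM in every library. Over 19 tested genes of reelin signalling and proteolysis, 1 was called lower at 2 weeks (Plat) and 2 at 5 weeks, Plat and the protease Adamts4 (-2.35 ± 0.36, adjusted p = 0.0361), with median changes of -0.37 and -0.23.

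Ecm1 (gene ID 13601, mm10 chromosome 3, 95734148 to 95739569) encodes a secreted matrix glycoprotein that keeps transforming growth factor beta latent in mouse liver. It had 124, 144 and 86.1 CPM in the 2-week libraries, 51.3, 91.4 and 81.7 CPM in the 5-week libraries, and 93.0, 66.2 and 76.9 CPM in the TAA libraries. Replicates 17 and 18 were the highest and replicate 23 the lowest of the 9, and each rhCYGB group overlapped TAA. The log2 change was 0.58 ± 0.25 (adjusted p = 0.195) at 2 weeks and -0.07 ± 0.25 (adjusted p = 0.910) at 5 weeks. With the length trend removed the 2-week change was 0.47 ± 0.21. It was 0.13 at 2 weeks and 0.14 at 5 weeks without replicates 17, 18 and 23 together. Between the courses it was -0.65 ± 0.25 (5 weeks against 2 weeks, adjusted p = 0.184), and 0.0073 without those 3 libraries. Over 20 tested genes of latent TGF beta activation, 2 were called lower at 2 weeks and 1 at 5 weeks, with median changes of -0.38 and -0.58. Thbs1, thrombospondin 1, which can activate latent TGF beta, fell at both times (-1.91 ± 0.32, adjusted p = 0.0255, and -1.85 ± 0.32, adjusted p = 0.0406). The protease Adamts1 fell at 2 weeks (-1.19 ± 0.24, adjusted p = 0.0367). Tgfb1 itself had -0.14 ± 0.17 (adjusted p = 0.646) and -0.63 ± 0.17 (adjusted p = 0.0974), with the 5-week libraries wholly below TAA. Without replicates 17, 18 and 23 together, 0 genes of the TGF beta, HGF and reelin lists were called by edgeR at 2 weeks, and 0, 1 and 1 lower at 5 weeks.

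Colec11 (gene ID 71693, mm10 chromosome 12, 28594172 to 28623330) encodes a collectin that binds sugars on microbes and starts the lectin pathway of complement. It had 32.0, 31.7 and 32.4 CPM in the 2-week libraries, 22.7, 33.1 and 33.5 CPM in the 5-week libraries, and 27.6, 20.4 and 20.3 CPM in the TAA libraries. The 2-week libraries agreed within 1.10% (coefficient of variation) and lay above TAA, while replicate 23 put the 5-week group among the TAA values. The log2 change was 0.49 ± 0.18 (adjusted p = 0.140) at 2 weeks and 0.39 ± 0.18 (adjusted p = 0.273) at 5 weeks, and neither was called. Over all rhCYGB libraries it was 0.44 ± 0.16 (adjusted p = 0.176), and 0.50 without replicate 23, where it was called (adjusted p = 0.0484). At 2 weeks the change with the length trend removed was 0.29 ± 0.15. With replicates 17, 18 and 23 left out together, the changes were 0.51 and 0.55, and neither was called.

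Several other genes of the lectin pathway rose at 2 weeks. Of 12 tested, 4 were called higher and 0 lower at 2 weeks, and 1 higher and 0 lower at 5 weeks, with median changes of 0.32 and 0.37. Mbl1 (0.71 ± 0.11, adjusted p = 0.0240) and Mbl2 (0.53 ± 0.10, adjusted p = 0.0336), the mannose-binding lectins made by hepatocytes, rose at 2 weeks, as did ficolin A (Fcna, 1.02 ± 0.23, adjusted p = 0.0455). Complement C2, the protease cleaved by the lectin pathway, rose at both times (0.63 ± 0.12, adjusted p = 0.0327, and 0.64 ± 0.12, adjusted p = 0.0467). Colec10, which pairs with Colec11 in circulating complexes, had 0.39 ± 0.20 (adjusted p = 0.260) and 0.45 ± 0.20 (adjusted p = 0.256). Masp1, the associated protease, ran from 5.92 to 14.6 CPM at 2 weeks, 10.6 to 45.1 CPM at 5 weeks and 9.22 to 20.1 CPM in TAA, with replicate 23 the highest. Without replicates 17, 18 and 23 together, 0 of the 12 were called against TAA at either time by edgeR, and the medians were 0.27 and 0.17. With library totals 1 was called higher at 2 weeks and the list's median was -0.0040, beside -0.36 over all genes.

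Hand2 (gene ID 15111, mm10 chromosome 8, 57320983 to 57324517) is a transcription factor of the stellate lineage. It had 7.79, 9.39 and 5.06 CPM in the 2-week libraries, 4.91, 8.19 and 8.07 CPM in the 5-week libraries, and 10.4, 7.49 and 9.67 CPM in the TAA libraries. The groups overlapped, and the lowest 2 values of the 9 were replicates 19 and 23. The log2 change was -0.31 ± 0.27 (adjusted p = 0.498) at 2 weeks and -0.38 ± 0.27 (adjusted p = 0.474) at 5 weeks. With single libraries left out the 2-week change ran from -0.52 (without replicate 18) to -0.098 (without replicate 19). Without replicates 17, 18 and 23 together it was -0.86 at 2 weeks and -0.18 at 5 weeks. Among 16 tested partners and mesenchymal transcription factors, edgeR called 0 at either time (6 and 2 at an unadjusted p under 0.05, 4 and 0 lower by DESeq2, 6 and 1 lower by limma), with median changes of -0.32 and -0.19. Gata4, which holds stellate cells in the quiescent state in mice, had 16.6, 13.3 and 13.4 CPM at 2 weeks, 13.4, 14.7 and 15.4 CPM at 5 weeks, and 17.8, 19.3 and 21.4 CPM in TAA. All rhCYGB libraries lay below TAA, but the changes of -0.44 ± 0.14 (adjusted p = 0.0999) and -0.43 ± 0.14 (adjusted p = 0.138) were not called. Lhx2, another factor of quiescence in mice, had 0.17 ± 0.27 (adjusted p = 0.716) and -0.23 ± 0.27 (adjusted p = 0.694). Tbx20, the gene of the list with the lowest p, had -1.08 ± 0.26 at 2 weeks (adjusted p = 0.0546).

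**Figure D3:**
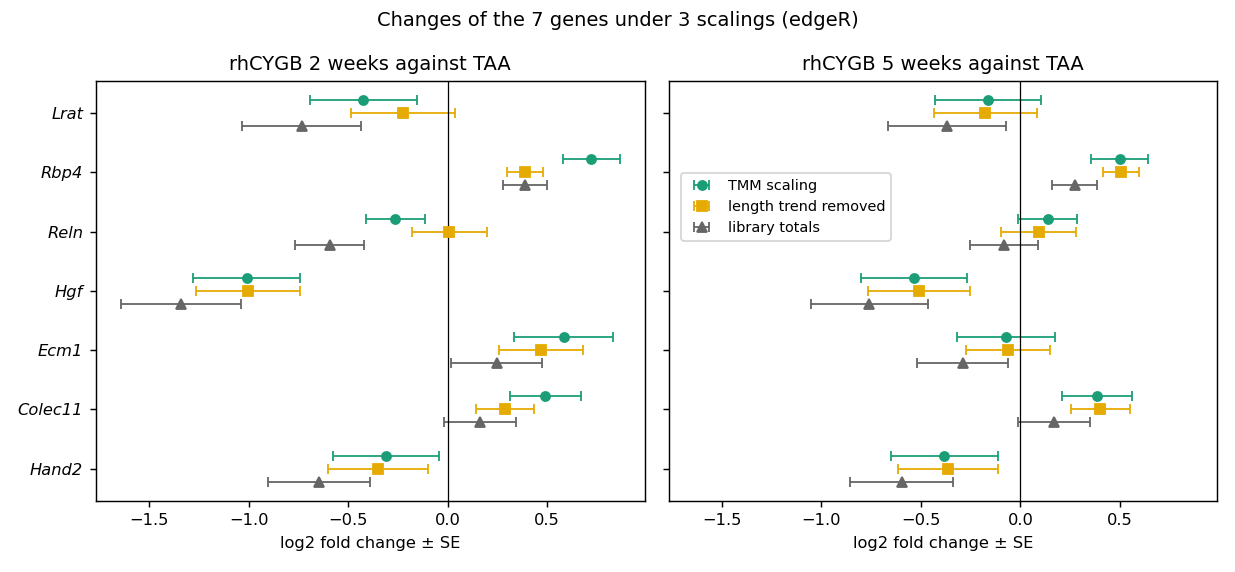
Log2 change (± SE) of the 7 genes at 2 weeks and at 5 weeks against TAA, under TMM scaling, with the gene length trend removed, and with library totals in place of TMM. Rbp4 lies above 0 and Hgf below 0 under all 3 scalings, while Reln at 2 weeks moves to 0.0085 once the length trend is removed.

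The courses were then compared with each other, 5 weeks against 2 weeks, to ask whether the longer course gave other levels. No member was called by edgeR, where 0.0204% of all genes were (0.0136% higher and 0.00679% lower, 3 genes in all), and 2 members passed an unadjusted p under 0.05, Reln and Ecm1 (23.2% of all genes did). DESeq2 and limma called 0 members as well. Reln, at 0.40 ± 0.15 (adjusted p = 0.181), was the member wholly higher in the 5-week libraries, where 21.1% of all genes lay apart (10.9% higher, 10.2% lower), and with the length trend removed its change was 0.08 ± 0.19. In this comparison the change of all genes followed length (rho 0.47). The remaining members, other than Ecm1 given above, had changes of 0.48 ± 0.27 (Hgf, adjusted p = 0.291), 0.26 ± 0.27 (Lrat, 0.556), -0.22 ± 0.14 (Rbp4, 0.342), -0.10 ± 0.18 (Colec11, 0.729) and -0.07 ± 0.27 (Hand2, 0.880). Below 0 lay 4 of the 7 and 51.1% of all genes. Taking both courses together against TAA, edgeR called 0 members where 2% of all genes were called (0.869% higher, 1.13% lower). At this setting 3 members passed an unadjusted p under 0.05 (Rbp4, Hgf and Colec11, beside 17.8% of all genes), DESeq2 called 1, Rbp4, and limma called 0. Below 0 lay 4 of the 7 and 48.1% of all genes. Rbp4 alone lay wholly above TAA in all 6 rhCYGB libraries, where 12.2% of all genes lay apart (5.47% higher, 6.73% lower).

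The wider retinoid genes were read beside Rbp4 and Lrat. Of 37 tested genes of retinoid uptake, storage and metabolism, which include both, 4 were called higher and 1 lower at 2 weeks, with a median change of 0.24. At 5 weeks edgeR called 0 (16 at an unadjusted p under 0.05, 8 higher and 3 lower by DESeq2, 2 lower by limma), with a median of 0.16. Beside Rbp4, the genes that rose at 2 weeks encode dehydrogenases that turn over retinol and retinal. Dhrs3, a retinal reductase that retinoic acid induces, rose to 228 ± 46.4 CPM against 122 ± 22.5 CPM in TAA (0.90 ± 0.19, adjusted p = 0.0400). Rdh7 rose to 990 ± 95.3 CPM against 651 ± 21.5 CPM in TAA (0.61 ± 0.12, adjusted p = 0.0367), and Dhrs4 to 151 ± 7.19 CPM against 105 ± 4.94 CPM in TAA (0.53 ± 0.11, adjusted p = 0.0350). Rdh7 belongs to a family of close copies, so its reads may be shared with relatives. Lpl, the lipoprotein lipase that releases retinoid from chylomicrons, fell to 47.5 ± 9.20 CPM against 101 ± 6.97 CPM in TAA (-1.09 ± 0.25, adjusted p = 0.0491). Over all rhCYGB libraries Rdh1 was also called lower (-3.47 ± 0.74, adjusted p = 0.0432), at 0.18 against 2.07 CPM in TAA, with groups that overlapped. Rdh1 was named after its values were seen. Of 17 tested retinoid receptors and target genes, only Dhrs3 was called at 2 weeks and 0 were at 5 weeks (3 at an unadjusted p under 0.05, 1 lower by DESeq2, 2 lower by limma). The counts rest on the same libraries as Rbp4, and without replicates 17, 18 and 23 together 0 of the 37 were called at 2 weeks, with a median of 0.19. With library totals the list had 0 called higher and 2 lower at 2 weeks and a median of -0.09, beside -0.36 over all genes.

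The other markers of quiescent stellate cells did not all move in one direction, though more of them lay below 0 than above it at 5 weeks. Of 27 tested, 1 was called higher and 0 lower at 2 weeks, and edgeR called 0 at 5 weeks (8 at an unadjusted p under 0.05, 1 higher and 1 lower by DESeq2, 2 lower by limma). The median changes were 0.01 and -0.23. Below 0 lay 13 of the 27 at 2 weeks and 19 at 5 weeks, beside 52.9% and 48.6% of all genes. Angptl6 rose at 2 weeks, to 7.36 ± 1.29 CPM against 3.87 ± 0.16 CPM in TAA (0.93 ± 0.19, adjusted p = 0.0347). Sparcl1, a matricellular gene, was called lower over all rhCYGB libraries (-1.32 ± 0.25, adjusted p = 0.0333). Their summed level was 814 to 968 CPM in the 2-week, 910 to 1018 CPM in the 5-week and 920 to 1084 CPM in the TAA libraries.

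Among markers of activated stellate cells and myofibroblasts, the called ones were lower in the same libraries. Of 25 tested, 10 were called lower and 0 higher at 2 weeks, and 8 lower and 0 higher at 5 weeks, with median changes of -1.34 and -1.55. The other 15 and 17 were not called, among them Fn1, fibronectin, named after its values were seen, with log2 changes of -0.33 ± 0.15 (adjusted p = 0.222) and 0.21 ± 0.15 (adjusted p = 0.487). Acta2, the smooth muscle actin of myofibroblasts, fell to 9.69, 18.1 and 7.88 CPM at 2 weeks and 3.83, 8.60 and 8.43 CPM at 5 weeks, against 43.8, 37.6 and 77.1 CPM in TAA (-2.15 ± 0.42, adjusted p = 0.0327, and -2.93 ± 0.43, adjusted p = 0.0361). Col1a2 fell at both times (-1.91 ± 0.42, adjusted p = 0.0440, and -2.10 ± 0.42, adjusted p = 0.0495), and Col1a1 was called over all rhCYGB libraries (-2.14 ± 0.45, adjusted p = 0.0432). These genes were known from earlier results of these data and are given only as the setting of the 7. Their calls depend on the libraries: leaving out each library in turn left 0 to 16 calls lower at 2 weeks and 0 to 4 at 5 weeks, while the medians stayed between -1.88 and -1.23. With only the TAA and 5-week groups in the fit, and without replicates 17, 18 and 23 together at either time, 0 were called.

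A list of stellate lineage markers, not meant to separate the quiescent from the activated state, had medians between those of these lists. Of its 16 genes, which include Lrat, Reln, Ecm1, Colec11 and Hand2, 1 was called lower at 2 weeks (Fstl1) and 0 at 5 weeks by edgeR (5 at an unadjusted p under 0.05, 4 lower by DESeq2, 5 lower by limma), with median changes of -0.36 and -0.50. Pdgfrb had -0.51 ± 0.24 (adjusted p = 0.231) and -0.78 ± 0.24 (adjusted p = 0.132), and desmin (Des) had -0.08 ± 0.32 (adjusted p = 0.896) and -1.30 ± 0.33 (adjusted p = 0.0785). Cygb, the mouse gene of the protein given, had -0.55 ± 0.32 (adjusted p = 0.317) and -0.51 ± 0.32 (adjusted p = 0.415). The 16 summed to 661 to 864 CPM in the 2-week, 490 to 864 CPM in the 5-week and 906 to 1332 CPM in the TAA libraries. The 13 portal fibroblast markers, 3 of which had an unadjusted p under 0.05 at 2 weeks and 6 at 5 weeks, had 0 calls by edgeR (2 and 3 lower by DESeq2, 3 and 3 lower by limma) and medians of -0.48 and -0.77. Of 9 cholangiocyte markers, 0 were called by edgeR at either time (1 at each by unadjusted p, DESeq2 and limma). Their medians were -0.18 and -0.85, with 6 of the 9 below 0 at 2 weeks and 9 at 5 weeks. Their sum was 293 to 406 CPM at 2 weeks, 121 to 388 CPM at 5 weeks and 362 to 586 CPM in TAA. That sum is mostly Spp1, also a macrophage marker here, which averaged 402 CPM in TAA and 257 CPM over all rhCYGB libraries. Of 13 sinusoidal endothelial markers, 0 were called by edgeR or DESeq2 (2 and 0 at an unadjusted p under 0.05, 1 and 0 lower by limma), with medians of -0.011 and -0.20. Of 7 mesothelial markers, 0 were called by edgeR, DESeq2 or limma (0 and 1 at an unadjusted p under 0.05), with medians of -0.46 and -1.10. Crabp1 and Hand1 were the list genes at 0 in every library. The part of other cell types in the members' levels was not tested.

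**Figure D4:**
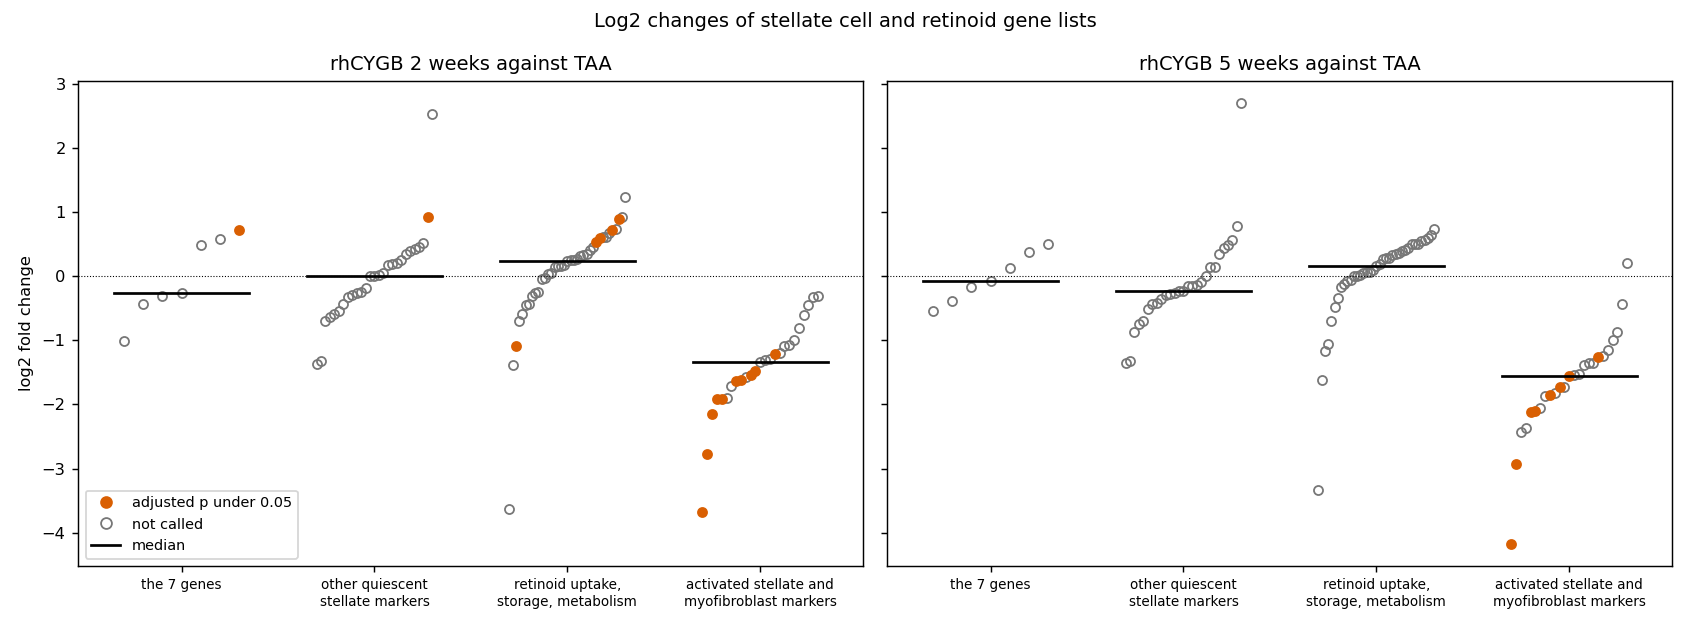
Log2 change of each gene (points, filled where the adjusted p is under 0.05) and the median (line) for the 7 genes, other quiescent stellate markers, retinoid genes and activated stellate markers, at 2 and 5 weeks against TAA. The 7 genes scatter on both sides of 0 with medians of -0.26 and -0.07, and the activated markers have medians of -1.34 and -1.55.

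Across the 9 libraries, each member was matched to its closest genes, up to 3, by the highest Pearson correlation of log2 CPM among 11900 genes, a description over 9 points in 3 groups that share scaling and depth. Rbp4 went with Smyd2 (r = 0.996), Bckdha (0.990) and Slc22a18 (0.985). Lrat went with Il10rb (0.943), Klhl13 (0.931) and Chst15 (0.904), and Hgf with Mtfr2 (0.938), Tmem206 (0.936) and Vrk1 (0.935). Ecm1 went with Doc2g (0.992), Cd74 (0.983), which carries class II antigens, and Gmppa (0.981). Colec11 went with Lurap1l (0.963), Npb (0.962) and Chil1 (0.958), and Hand2 with Cep78 (0.964) and the matrix proteoglycan Bgn (0.959). Reln had the weakest matches, Ccbe1 (0.905), Mthfd1l (0.885) and Ubtf (0.878). No member was among the 3 closest genes of another.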

How the data were processed

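Poly(A)-selected, strand-marked, paired-end libraries from 9 liver samples were used, 3 per group. Tools listed in the submitters' processing notes are HISAT2 2.1.0, StringTie 1.3.4d and FastQC 0.11.7, with mm10 as the build. Estimated counts (whole numbers per gene and per transcript) and FPKM values are those the authors deposited, as the file headers name them. The step from StringTie to counts is not given in the sources used here, nor is strand use in counting. Transcript counts are estimates among overlapping forms. Totals were 55655727 to 87289945 per library, and the common biological coefficient of variation was 24.9%. No column was left unmapped.

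Counts were filtered (edgeR 4.0.16 filterByExpr, minimum count 10, minimum total 15), scaled by TMM and tested by edgeR's quasi-likelihood test (R 4.3.3). P-values were adjusted over 14731 genes by Benjamini-Hochberg, with calls at 0.05. The 3 groups entered a single fit, and a second fit set 6 rhCYGB libraries against 3 TAA libraries. SE was taken as the size of the change over the root of its F value. Alternatives were DESeq2 1.42.0, no filter, library totals, limma 3.58.1 on log2(FPKM + 1), fits of the 2 groups compared, a lowess length trend (span 0.3) removed by offsets, and leaving out libraries. The tests were tried on simulated data first. The promoter windows were matched by symbol for all 7 genes.

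The members and the 17 lists (281 of 283 symbols in the table) were chosen with earlier results of these data known. Named genes are the 7, their 3 closest genes each, up to 4 called genes of each list (otherwise the lowest p), fixed stellate genes and fixed partners. Some genes that this rule names are not reported here. Stra6, a retinol receptor, was below the filter. Comparisons of list counts across alternatives were chosen after seeing the data.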

Additional observations from a re-analysis of the deposited data

How the results depend on the processing

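No paired analysis was possible because the groups share no replicate numbers. Library totals moved the median change of all genes to -0.36, -0.21, 0.10 and -0.26 (2 weeks, 5 weeks, 5 weeks against 2 weeks, and any rhCYGB), and log2(FPKM + 1) to -0.20, -0.13, 0.04 and -0.17. Relative to that median, Rbp4 at 2 weeks was 0.75 with library totals, 0.58 on FPKM and 0.75 in TMM, and Reln at 5 weeks was 0.13, 0.06 and 0.13. In absolute terms library totals took the Rbp4 call at 2 weeks away (0.39, adjusted p = 0.0509), as did FPKM (0.38, adjusted p = 0.106) and leaving out replicates 17, 18 and 23 together (0.63, adjusted p = 0.272). Over 16 alternatives the Rbp4 change at 2 weeks ran from 0.38 to 0.77 and was called in 7. The Hgf change ran from -1.34 to -0.67 and was called in 4. Its end at -0.67 came from log2(FPKM + 1), where the added 1 shrinks the change of so low a gene. Of 441 values of single members under an alternative, 397 kept direction and side of the threshold, 25 reversed, 10 gained a call and 9 lost one.

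The number of genes called depended strongly on the setting. At 2 weeks (488, of which 291 higher and 197 lower) it was 1724 with DESeq2, 1722 with library totals (110 higher, 1612 lower), 1983 on FPKM (145 higher, 1838 lower), 975 with the 2 groups alone, 14 without replicates 17, 18 and 23, and 1 to 1109 with each library left out. At 5 weeks (190, of which 101 higher and 89 lower) it was 1178 with DESeq2, 105 with no filter, 504 with library totals (38 higher, 466 lower), 1001 on FPKM (69 higher, 932 lower), 1 with the 2 groups alone, 602 with the length trend removed, 8 without replicates 17, 18 and 23, and 0 to 249 with each library left out. At 5 weeks against 2 weeks (3) it was 796 with DESeq2, 5 on FPKM, 0 with the 2 groups alone, 6 with the length trend removed, 5 without those 3 replicates, and 1 to 1995 with each library left out, the highest without replicate 27. Over any rhCYGB (295, of which 128 higher and 167 lower) it was 1220 with DESeq2, 1163 with library totals (58 higher, 1105 lower), 1641 on FPKM (83 higher, 1558 lower), 586 with the length trend removed, and 0 to 633 with each library left out. The cause was not tested. Members called at 2 weeks (1) numbered 2 with DESeq2, 0 without replicates 17, 18 and 23, and 0 to 2 with each library left out. At 5 weeks (0) they numbered 1 with DESeq2 and 1 with the length trend removed, and over any rhCYGB (0) 1 with each of these and 0 to 2 with each library left out.

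Reversals were all of values that were not called. With library totals, Reln at 5 weeks was -0.081, and at 5 weeks against 2 weeks Colec11 was 0.0070 and Hand2 0.050. On FPKM, Reln at 5 weeks was -0.066, Hand2 at 5 weeks against 2 weeks 0.039 and Ecm1 over any rhCYGB -0.045. With the length trend removed, Reln was 0.0085 at 2 weeks and 0.050 over any rhCYGB, and at 5 weeks against 2 weeks Rbp4 was 0.12 and Colec11 0.11. Without replicates 17, 18 and 23, Ecm1 at 5 weeks was 0.14, Reln over any rhCYGB 0.13, and at 5 weeks against 2 weeks Lrat was -0.017, Ecm1 0.0073, Colec11 0.041 and Hand2 0.69. With each library left out, Lrat at 5 weeks ran from -0.37 to 0.087, Ecm1 at 5 weeks from -0.24 to 0.12, Reln over any rhCYGB from -0.16 to 0.0061, and at 5 weeks against 2 weeks Colec11 from -0.19 to 0.055 and Hand2 from -0.29 to 0.14.

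Counts of the gene lists under these alternatives were recomputed after seeing the data. Hgf had 77 to 350 reads per library, the fewest of the members.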

Other observations

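Of 14 tested macrophage and Kupffer cell markers, 1 was called higher and 1 lower at 2 weeks, with a median log2 change of -0.25. The one called higher, Clec4f, a marker of resident Kupffer cells, rose to 126 CPM against 70.0 CPM in TAA (log2 change 0.85 ± 0.18, edgeR adjusted p = 0.0411). Gpnmb, known from lipid-laden and scar-associated macrophages, fell to 15.8 CPM against 51.4 CPM in TAA (-1.70 ± 0.25, adjusted p = 0.0240). Other Kupffer cell markers were not called at 2 weeks: Vsig4 had 0.36 ± 0.20, Timd4 0.60 ± 0.35, Marco -0.18 ± 0.50 and Cd5l -0.07 ± 0.23, all 4 named after their values were seen. With each library left out in turn, 0 to 1 of the 14 were called higher and 0 to 2 lower at 2 weeks, and 0 were called without replicates 17, 18 and 23 together. At 5 weeks edgeR called 0 (5 at an unadjusted p under 0.05, 4 lower by DESeq2, 5 lower by limma), with a median of -0.66. Ccr2, a chemokine receptor of monocyte-derived cells, was called lower over all rhCYGB libraries, at 6.95 against 13.5 CPM in TAA (-0.96 ± 0.18, adjusted p = 0.0340). Myh11, the smooth muscle myosin, was also called lower over all rhCYGB libraries (-1.46 ± 0.32, adjusted p = 0.0490), as 1 of 11 tested smooth muscle and pericyte markers, and so was Cldn4, an epithelial claudin, among the 9 cholangiocyte markers (-1.91 ± 0.42, adjusted p = 0.0489).

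Among retinoid genes, Cyp26a1, which degrades retinoic acid and is induced by it, lay wholly above TAA at 2 weeks without a call (90.5 ± 39.1 against 38.5 ± 13.2 CPM, log2 change 1.23 ± 0.32, adjusted p = 0.0606), and at 5 weeks had a change of 0.05. It was picked after its values were seen, as was Retsat, a retinol saturase, with 440 ± 40.7 against 232 ± 65.8 CPM in TAA (0.92 ± 0.25, adjusted p = 0.0718).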
